A study of Homo sapiens with 5 samples.

Results

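The genes described here are the zinc finger genes of chromosome 19 whose symbol is ZNF followed by a number. They were taken as the probes that the platform annotation gives exactly 1 such symbol and whose gene lies on chromosome 19 in a RefSeq gene table (assembly GRCh38.p14). Where a gene had several such probes, the one that was brightest on average across the 5 arrays stood for it. This gave 221 genes of the 18417 genes measured, with 218 ZNF genes on other chromosomes as background. Of the 221, 220 are protein coding and ZNF781 is listed as a transcribed pseudogene. RNA came from RS4.11, a human leukemia cell line with a rearranged MLL gene, grown in culture. The 2 control arrays held RNA of cells given the solvent DMSO, and the 3 SB216763 arrays RNA of cells given 10 uM SB216763, a compound that inhibits GSK-3 kinase activity, in each case for 20 h. Both groups came from 1 line. The labels do not tell whether arrays of a group stem from independent cultures, so the p-values reflect array-to-array spread that may be purely technical.

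Most ZNF genes of chromosome 19 encode KRAB zinc finger proteins. Their tandem zinc fingers read DNA, often within retrotransposons, and the KRAB domain recruits the corepressor TRIM28, which brings the methyltransferase SETDB1, heterochromatin proteins and histone deacetylases to the bound site. The genes arose by repeated tandem duplication and stand in clusters, so neighbours are often close relatives, and short array probes may not separate all of them. The probe annotation was taken as given, and cross-hybridisation was not tested.

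A gene was called above background on an array when it exceeded the 95th percentile of 341 olfactory receptor genes, which lay between 5.98 and 6.19 on the log2 scale. Of the B cell precursor markers, PAX5 and CD79B were above it on all 5 arrays and CD79A on 4, while CD22, DNTT, RAG1 and VPREB1 were above it on none. BLNK, the last of the 8 measured, was called higher and was above background on all 3 SB216763 arrays and on neither control array. The mean over the 8 was 5.58 on both control arrays and 5.78 to 5.90 on the SB216763 arrays. All 5 measured myeloid markers were above background on every array, and CD68, CSF3R and LYZ were called higher with SB216763. MPO at -0.23 (SE 0.11) and CD14 at -0.0027 (SE 0.13) were not called, so the myeloid markers did not change as 1. The mean over the myeloid markers was 8.60 to 8.67 on the control arrays and 9.13 to 9.23 on the SB216763 arrays, and the part of both marker changes in the results below was not tested. Of the T cell markers CD7 alone was above background on all arrays, and CD3D, CD3E and CD2 were above it on none. Of the erythroid markers measured, KLF1 was above background on all 5 arrays and HBB on 1, and neither was called. Fewer cells of a type and less RNA per cell cannot be told apart on these arrays.

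ZNF genes of chromosome 19 were called higher far more often than lower after SB216763. By limma with Benjamini-Hochberg adjustment over all genes, 44 of the 221 rose and 2, ZNF850 and ZNF584, fell, while 175 failed the threshold. Over all genes 13.1% were called, 7.21% higher and 5.92% lower, against 19.9% of these genes higher and 0.905% lower. The median difference, SB216763 minus control on the log2 scale, was 0.13, with an interquartile range of 0.0051 to 0.32, beside 0.0033 over all genes. The fitted difference was above 0 for 169 of the 221 genes (76.5%), and for 50.7% of all genes. Most of the increases were small. A rise of at least 1.5-fold was found for 13 of the called genes, ZNF846 below background among them, which held for 2.45% of all genes, and 2 had risen at least 2-fold.

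The calls need the pair of control arrays. When control replicate 1 was dropped, limma called 0 of the 221 genes and 1 of all 18417, and 49 were higher and 5 lower by the unadjusted p at 0.05. When control replicate 2 was dropped it called 0 of all genes, these included, and the unadjusted counts were 65 and 4. In the fit of all 5 arrays, 72 of the 221 genes were higher and 4 lower by the unadjusted p at 0.05, beside 2626 and 2254 of all 18417. Over all genes such counts were not made with an array left out or without moderation. The unadjusted counts given for those settings, here and below, therefore have no share to be set against. All 44 higher genes and both lower genes kept their sign when any single array was left out, and the median of the 221 genes stayed between 0.092 and 0.16. Dropping SB216763 replicate 1 or replicate 3 left 15 or 24 genes called higher, where 2.93% and 4.39% of all genes were, and dropping replicate 2 gave 60, where 9.12% of all genes were. An ordinary linear model without moderation called 4 higher, beside 0.68% of all genes, and 0 lower, with 53 higher and 3 lower at an unadjusted p under 0.05.

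Of the 221 genes, 170 were above background on all 5 arrays, 6 on some and 45 on none. Among the 170, 40 were called higher and 2 lower, 23.5% and 1.18%, where 18.2% of all 12071 genes at that level were called, 9.73% higher and 8.51% lower. Their median difference was 0.16, beside 0.015 for the 12071. Of the 45 genes above background on no array, ZNF846 and ZNF439 were called higher, and the list's median was 0.028. ZNF439 was deposited at the same value, 5.50, on all 3 SB216763 arrays. The SB216763 arrays lay wholly above the control arrays for 91 of the 221 genes and wholly below for 12, where the shares over all genes were 21.6% and 19.9%.

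Array by array, the median of the 221 genes relative to their own control means was -0.032 and 0.032 on the control arrays, and 0.15, 0.084 and 0.18 on the 3 SB216763 arrays. The groups did not overlap, and SB216763 replicate 2 was the nearest to the controls. Here and in the clusters below, the control medians mirror each other around 0 by construction, since values are relative to the mean of those arrays. The same median over all genes was -0.021 and 0.021 in the controls and -0.0038, 0.036 and -0.019 with SB216763. With arrays centred to a common median, 34 of the 221 genes were called higher and 3 lower with a median of 0.075, and the split over all genes turned from 1328 higher and 1090 lower to 1048 higher and 1536 lower.

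**Figure D1:**
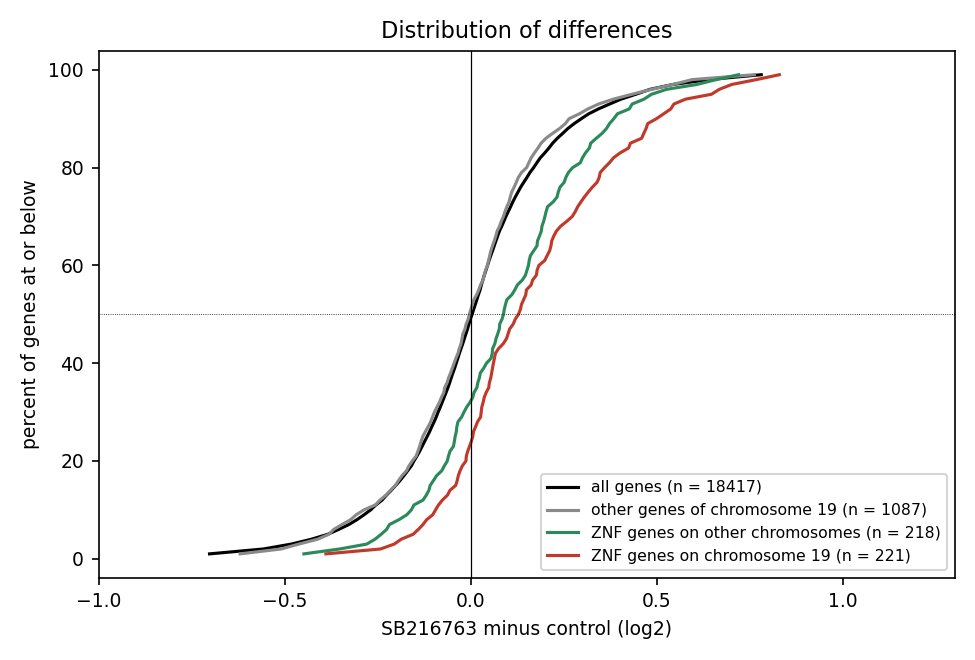
Percent of genes (vertical axis) at or below each difference, SB216763 minus control on the log2 scale (horizontal axis), for 4 groups of genes, drawn from the 1st to the 99th percentile. The line of the chromosome 19 ZNF genes lies to the right of the others, with a median of 0.13, beside 0.087 for ZNF genes elsewhere and -0.0042 for other genes of chromosome 19.

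The 218 ZNF genes on other chromosomes showed the same direction with fewer calls. Of these, 28 were called higher and 3 lower, 12.8% and 1.38%, and their median difference was 0.087. The remaining 1087 genes of chromosome 19 had a median of -0.0042, with 80 called higher and 72 lower, close to the shares over all genes. Per-array medians of the ZNF genes elsewhere were 0.071, 0.083 and 0.11 with SB216763. With each array left out in turn, the median difference of the ZNF genes elsewhere stayed between 0.076 and 0.11. Without SB216763 replicate 1 it was 0.106, beside 0.107 for the ZNF genes of chromosome 19. The difference between these lists was not tested, as the lists were chosen with results known. Dropping either control array again left 0 of the 218 genes called by limma, with 38 or 43 higher and 8 or 7 lower by the unadjusted p. The largest increases outside chromosome 19 were in ZNF117 on chromosome 7 at 1.19 (SE 0.11), ZNF366, a dendritic cell factor, at 1.18 (SE 0.088), and ZNF277 at 0.73 (SE 0.13). The 3 genes that fell were ZNF367 at -0.83 (SE 0.10), ZNF143, an activator that binds many promoters, at -0.51 (SE 0.12), and ZNF395 at -0.46 (SE 0.077).

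The largest increase on chromosome 19 was in ZNF404. Its log2 values were 6.29 and 5.995 on the control arrays and 7.22, 7.22 and 7.60 with SB216763. All SB216763 values lay well above both controls, but only 1 of the 2 control values was above background. The difference was 1.21 (SE 0.14), a 2.31-fold rise (adjusted p = 0.0025). ZNF581 had the smallest adjusted p of the 221 genes, 4.7e-04. It was at 7.75 and 7.79 in the controls and at 8.86, 8.85 and 8.83 with SB216763, so that replicates nearly coincided while the groups differed by 1.08 (SE 0.074), or 2.11-fold.

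ZNF737 rose from 7.44 and 7.47 to 8.22, 8.24 and 8.34, 1.75-fold (adjusted p = 0.0013). ZNF226 rose from 6.80 and 6.88 to 7.64, 7.35 and 7.89, a difference of 0.79 (SE 0.15) with a wider spread among the SB216763 arrays. ZNF573 went from 6.51 and 6.90 to 7.35, 7.19 and 7.77, and was among the least precise of the named increases, at 0.73 (SE 0.18, adjusted p = 0.038). ZNF577, by contrast, was at 7.83 and 7.87 against 8.49, 8.52 and 8.54, and differed by 0.67 (SE 0.075). The groups did not overlap for any of these genes. As they were named for passing the threshold, this only describes them, and SB216763 arrays lay wholly above for 21.6% of all genes.

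ZNF91 and ZNF93, which encode KRAB proteins known to silence SVA and LINE-1 retrotransposons, both rose. ZNF91 was at 7.87 and 8.01 in the controls and at 8.69, 8.45 and 8.69 with SB216763, 1.59-fold higher (adjusted p = 0.0068). ZNF93 was at 8.47 and 8.48 against 9.08, 9.07 and 9.21, 1.57-fold higher (adjusted p = 0.0032). ZNF555, ZNF429, ZNF230 and ZNF181 rose by 0.70 (SE 0.11), 0.70 (SE 0.14), 0.65 (SE 0.12) and 0.59 (SE 0.097). Just under 1.5-fold stood ZNF211 at 0.58, ZNF543 at 0.57 and ZNF383 at 0.55. The other called genes rose by 0.28, in ZNF460, to 0.54, apart from ZNF846 at 0.83.

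Both genes that fell were well above background. ZNF850 was at 9.31 and 9.29 in the controls and at 8.92, 8.59 and 8.89 with SB216763, a difference of -0.50 (SE 0.11, adjusted p = 0.026). ZNF584 was at 8.41 and 8.39 against 7.93, 8.02 and 8.03, a difference of -0.40 (SE 0.078, adjusted p = 0.015). For both genes the control arrays nearly coincided and the SB216763 arrays all lay below them. Dropping control replicate 1, control replicate 2 or SB216763 replicate 1 ended both calls.

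Several of the better-known genes of the group did not pass. ZNF274, which brings SETDB1 to the 3′ ends of zinc finger genes themselves, was at 9.38 and 9.46 against 9.47, 9.44 and 9.52, a difference of 0.055 with a 95% interval of -0.13 to 0.24. ZNF331, an imprinted gene, differed by 0.12 (SE 0.081) and ZNF224, a KRAB repressor, by 0.12 (SE 0.11). ZNF146, which encodes a protein made almost wholly of zinc fingers, was at 10.53 and 10.59 against 10.39, 10.23 and 10.40, a difference of -0.22 (SE 0.087, adjusted p = 0.16). The smallest differences among genes above background on all arrays were those of ZNF549 at -0.0033, ZNF324 at -0.0041 and ZNF579 at 0.0051, with 95% intervals of -0.21 to 0.20, -0.22 to 0.21 and -0.27 to 0.28, so differences inside these intervals could not be told from 0.

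**Figure D2:**
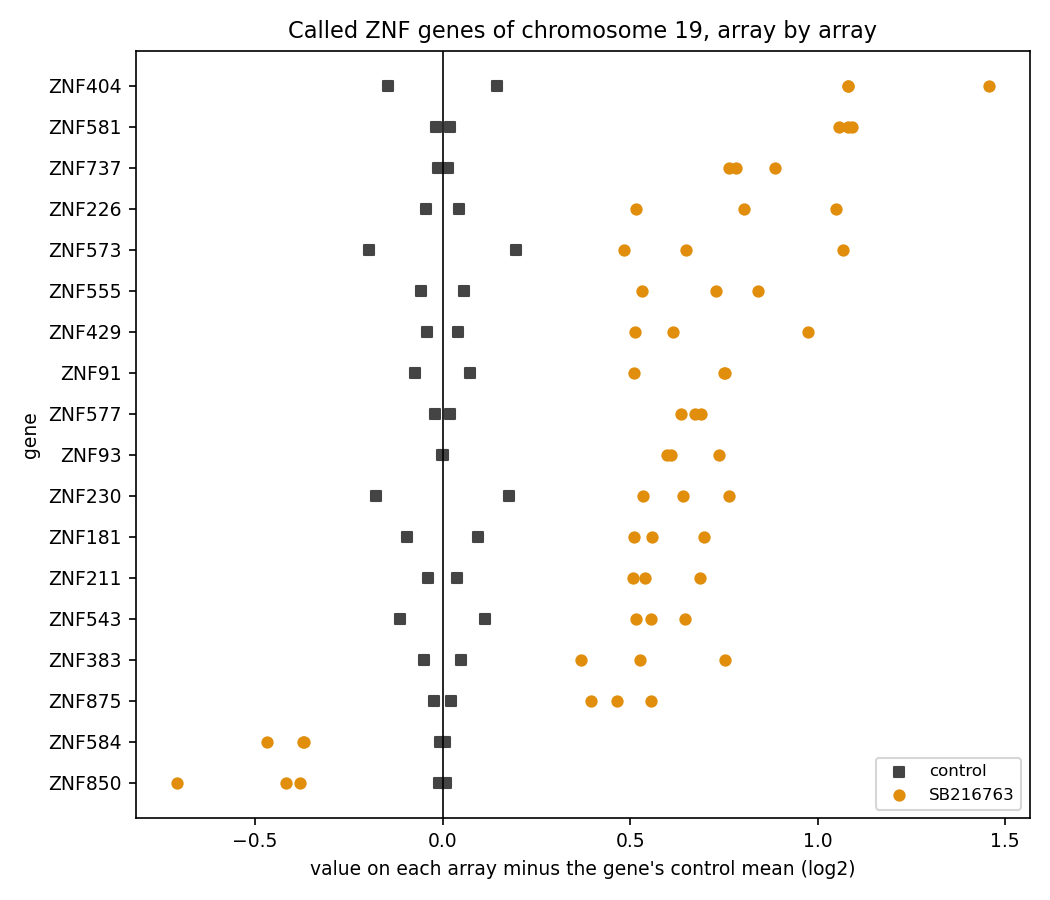
Log2 value on each array minus the mean of the 2 control arrays (horizontal axis) for 18 called ZNF genes of chromosome 19 (vertical axis), with control arrays as squares and SB216763 arrays as circles. For 16 genes all SB216763 arrays lie to the right of both controls, and for ZNF850 and ZNF584 all lie to the left. The genes were picked as past the threshold, so the separation only describes them.

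Along the chromosome, the genes were grouped into clusters by the order of protein-coding genes in the RefSeq table, with a new cluster wherever more than 5 other protein-coding genes lay between neighbouring zinc finger genes. Since the sources used here do not name the build behind the array annotation, order was used and no gene positions are given. Of the 221 genes, 200 fell into 11 clusters of at least 5 measured genes, each named here by its first and last member. Within these clusters 42 genes rose and 2 fell, with a median of 0.14. Among the 21 genes outside them ZNF333 and ZNF296 rose and the median was 0.046.

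The median difference was above 0 in all 11 clusters and ran from 0.0063 to 0.34. It was highest in the cluster from ZNF101 to ZNF254, where 14 of 33 genes rose (42.4%, beside 7.21% of all genes), 0 fell and 31 differences were above 0. Next came ZNF317 to ZNF846 with a median of 0.18, 2 of 9 genes being called higher, one of them ZNF846, and ZNF565 to ZNF573 at 0.15, with 4 of 23 genes higher and ZNF850 lower. The cluster from ZNF283 to ZNF180, which holds ZNF404, ZNF226 and ZNF230, also had a median of 0.15, with 3 of 17 genes higher and 16 differences above 0. In the largest cluster, ZNF264 to ZNF446 at the end of the order, 9 of 38 genes rose, led by ZNF211, and ZNF584 fell, with a median of 0.13. In ZNF577 to ZNF331, 5 of 35 genes rose, with a median of 0.11.

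The other clusters held few calls. In ZNF653 to ZNF791, 2 of 21 genes, ZNF763 and the dim gene ZNF439, were called higher and the median was 0.026. ZNF181 was called in ZNF302 to ZNF792, whose median over 5 genes was 0.0063. Both clusters hold many dim genes, and over their members above background on all arrays, 10 of 21 and 3 of 5, the medians were 0.15 and 0.31. Over such members the median of ZNF565 to ZNF573 was 0.062. ZNF555 alone was called in ZNF554 to ZNF77 and ZNF581 alone in ZNF628 to ZNF580, with medians of 0.065 and 0.082. Of the 7 genes from ZNF582 to ZNF835, with a median of 0.12, limma called 0, and 1, the dim gene ZNF470 (adjusted p = 0.13), had an unadjusted p under 0.05. When arrays were centred, the medians of ZNF653 to ZNF791 and ZNF302 to ZNF792 turned to -0.026 and -0.046, and without SB216763 replicate 2 that of ZNF582 to ZNF835 was -0.011.

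**Figure D3:**
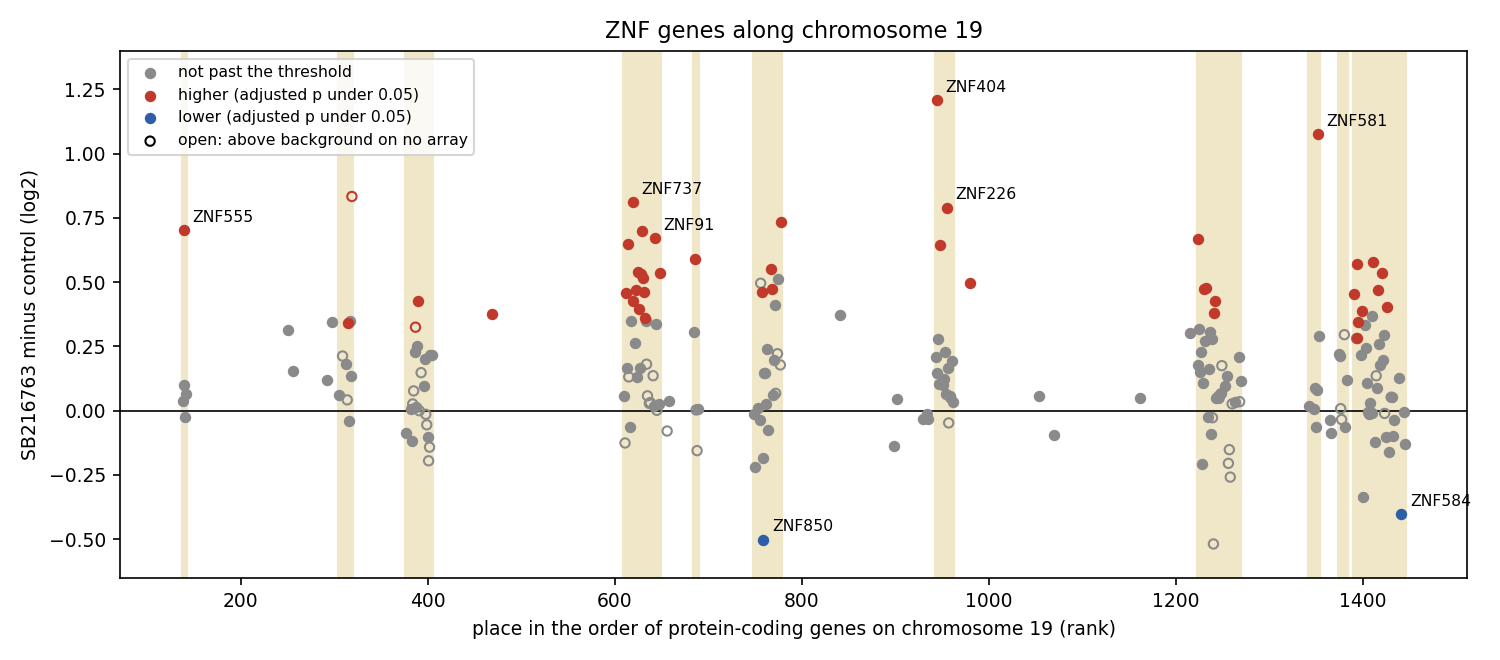
Difference, SB216763 minus control on the log2 scale (vertical axis), of 220 ZNF genes by their place in the order of protein-coding genes on chromosome 19 (horizontal axis). Shaded bands are the 11 clusters of at least 5 genes, and red and blue points are genes called higher and lower. The band from ZNF101 to ZNF254 holds 14 of the 44 red points, and blue points mark only ZNF850 and ZNF584.

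Some called genes stood side by side and others apart. ZNF493, ZNF429, ZNF100, ZNF43 and ZNF208 follow each other in the order and all rose, as did ZNF460, ZNF543 and ZNF304, and ZNF383 with ZNF875, which lie next to ZNF585A and ZNF585B. Next to ZNF404 among the measured genes, ZNF283 and ZNF45 differed by 0.21 (SE 0.10) and 0.15 (SE 0.13) and did not pass. ZNF581 was flanked by ZNF784 at 0.082 (SE 0.080) and ZNF580 at 0.29 (SE 0.087, adjusted p = 0.068). ZNF850, which fell, stood between ZNF567 at -0.19 and ZNF790 at 0.15, and ZNF461, on the far side of ZNF567, rose by 0.46 (SE 0.10). Over 196 pairs of neighbouring genes of 1 cluster, the differences had a Pearson r of 0.17 and a Spearman rho of 0.24, and over the 119 pairs above background on all arrays 0.16 and 0.20. All pairs share the same 5 arrays, and chained pairs share genes, so these values only describe the list. Inside the clusters lay 24 measured genes whose symbol does not begin with ZNF or ZFP plus a number, ZSCAN4 and ZSCAN1 among them. Of these, limma called 0, beside 13.1% of all genes. An unadjusted p below 0.05 was found for 3, beside 2626 higher and 2254 lower of all 18417 genes. With 24 genes the counts are too small to set against these shares. The 9 within ZNF264 to ZNF446 had a median of -0.0013 and the 4 within ZNF577 to ZNF331 one of 0.040.

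**Figure D4:**
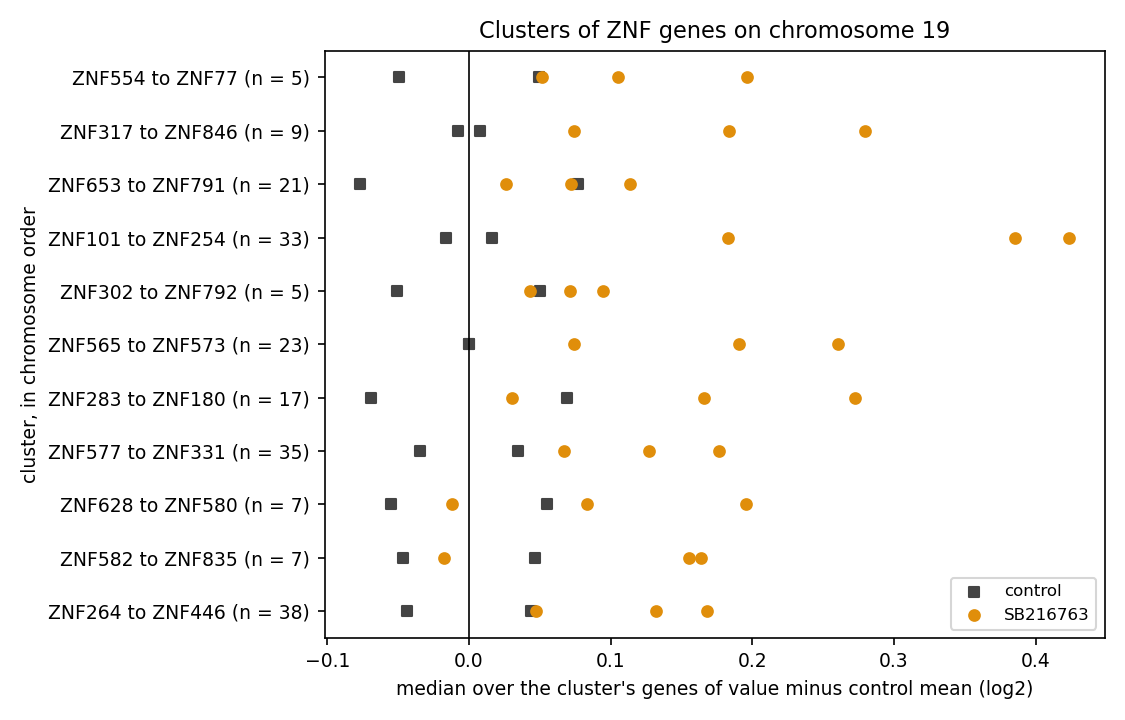
Median over the genes of each cluster of the log2 value minus the gene's control mean (horizontal axis), for each array, in the 11 clusters of at least 5 genes (vertical axis, in chromosome order, n = genes). In the cluster ZNF101 to ZNF254 the SB216763 arrays lie at 0.18, 0.39 and 0.42 and the controls at -0.017 and 0.017, while the groups overlap in 5 clusters, ZNF653 to ZNF791, ZNF302 to ZNF792, ZNF283 to ZNF180, ZNF628 to ZNF580 and ZNF582 to ZNF835.

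The cluster from ZNF101 to ZNF254 is a run of related KRAB zinc finger genes. It holds ZNF737, ZNF429, ZNF91 and ZNF93, described above, and also ZNF431 at 0.54, ZNF254 at 0.54, ZNF493 at 0.53, ZNF100 at 0.51, ZNF430 at 0.47, ZNF43 at 0.46, ZNF506 at 0.46, ZNF626 at 0.43, ZNF708 at 0.39 and ZNF208 at 0.36. All 14 were among the 25 genes of the cluster above background on every array, whose median was 0.39. The 8 genes of the cluster above background on no array, ZNF14, ZNF682, ZNF676, ZNF729, ZNF492, ZNF99, ZNF730 and ZNF681, differed by -0.13 to 0.18. Among the brighter genes ZNF724 at 0.018, ZNF726 at 0.025, ZNF101 at 0.058 and ZNF90 at -0.062 showed the smallest differences. SB216763 replicate 2 stood lower than the other two, at a median of 0.18 above the control means against 0.42 and 0.39.

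In this cluster limma called 0 genes when either control array was dropped, as it called 0 or 1 of all genes, with 18 (without replicate 1) and 15 (without replicate 2) of the 33 higher by the unadjusted p. It called 4 higher without SB216763 replicate 1, 19 without SB216763 replicate 2 and 7 without SB216763 replicate 3, where the shares over all genes were 2.93%, 9.12% and 4.39%. The cluster's median stayed between 0.23 and 0.38 over these settings. It was 0.21 when the probes of a gene were averaged. Without the cluster, 30 of the other 188 genes were called higher (16.0%) and 2 lower, with a median of 0.10, so calls were not confined to it. For the ZNF genes elsewhere the share called higher was 12.8% and the median 0.087, and over all genes 7.21% and 0.0033. The difference between these lists was likewise not tested.

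Some genes of this cluster were measured by several probes. For ZNF493 they gave 0.53 and 0.55, and for ZNF626 0.43 and 0.44. For ZNF208 they gave 0.36, 0.37 and -0.21, the last with SE 0.14, so its rise depends on the probe. ZNF257, which did not pass, gave 0.35 and 0.082, and ZNF616, of another cluster, 0.27 and -0.012.

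RefSeq promoters (GRCh38.p14, 250 bases before to 50 after each start) were found for 195 of the 221 genes and for 27 of the 33 genes of the cluster. A run of 10 bases, TCCAATCAGG, stood in the promoters of 25 of these 27 genes. It was picked as the run of that length that the most of them share, so its frequency there is a description. It contains CCAAT, the core of the box that the factor NF-Y binds. On either strand the 10 bases were found in 0.428% of the 27305 genes of the table, in 14 of 168 other ZNF genes of chromosome 19 and in 13 of 176 ZNF genes elsewhere. In the cluster the 25 genes held 32 copies of it, which began 24 to 88 bases before the start, always on the strand of the gene. ZNF93, ZNF737, ZNF626, ZNF43, ZNF208, ZNF724 and ZNF675 held more than 1 copy. Of the 25 genes of the cluster with the run, 12 were called higher, with a median of 0.35. The 2 without it had a median of 0.44 with 1 called higher, so the genes printed do not give the share that rose. The sequences below show the run, in capitals, in 4 genes that rose and in 2 that did not pass, to let the flanks be compared. Only 1 copy is marked per gene, and the stretches of ZNF93, ZNF737 and ZNF724 begin with the last bases of another copy.
ZNF93: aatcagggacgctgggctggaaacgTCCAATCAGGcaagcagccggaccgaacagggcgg
ZNF737: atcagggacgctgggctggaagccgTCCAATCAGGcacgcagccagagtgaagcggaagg
ZNF431: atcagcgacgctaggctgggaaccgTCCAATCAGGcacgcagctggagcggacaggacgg
ZNF91: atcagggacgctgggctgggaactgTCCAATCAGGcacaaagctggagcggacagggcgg
ZNF724: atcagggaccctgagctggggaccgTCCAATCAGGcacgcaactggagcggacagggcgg
ZNF726: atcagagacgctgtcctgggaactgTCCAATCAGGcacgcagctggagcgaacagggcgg

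These stretches lie at chr19:19900864-19900923 (plus strand) for ZNF93, chr19:20565805-20565864 (minus strand) for ZNF737 and chr19:21141956-21142015 (plus strand) for ZNF431. Those of ZNF91, ZNF724 and ZNF726 lie at chr19:23395496-23395555 (minus strand), chr19:23250413-23250472 (minus strand) and chr19:23914802-23914861 (plus strand). The genes printed had been picked as holding the run, and ZNF724 and ZNF726 among them differed by 0.018 and 0.025, beside 0.81 for ZNF737. Outside the cluster, the 14 ZNF genes of chromosome 19 with the run had a median of 0.046 with 0 called by limma (1 at an unadjusted p under 0.05), and the 154 without it a median of 0.12 with 28 called higher and 2 lower. Of the 13 ZNF genes elsewhere with the run, ZNF138, ZNF92 and ZNF862 on chromosome 7 rose by 0.60 (SE 0.14), 0.42 (SE 0.091) and 0.37 (SE 0.094). ZNF107, ZNF273, ZNF479, ZNF680 and ZNF716, also on chromosome 7, were not called. The 13 genes had a median of 0.22 with 23.1% called higher. The 163 ZNF genes elsewhere without the run had 0.087 with 19 higher (11.7%) and 2 lower, beside 7.21% of all genes higher. The difference was not tested. A match is no measure of binding.

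Other motifs were searched on both strands of the same promoters. The ETS motif CCGGAAGT was found in 39 of the 195 genes (20.0%), against 4.95% of all genes of the table, and in 0 of the 28 promoters of the 27 genes of the cluster ZNF101 to ZNF254. It was also found in 28 of 176 ZNF genes on other chromosomes (15.9%), so it is not particular to chromosome 19. The 39 genes had a median difference of 0.14 with 10 called higher (25.6%). Outside that cluster the 129 genes without the motif had a median of 0.100 with 18 higher (13.95%), and with the cluster the 156 without it had 0.13 with 31 higher (19.9%). On other chromosomes the 28 ZNF genes with the motif had a median of 0.072 with 4 higher (14.3%). The 148 without it had 0.094 with 18 higher (12.2%). The differences between genes with and without the motif were not tested. The cAMP response element TGACGTCA, which CREB binds, was found in 8 genes (4.10%, against 2.25% of all), of which 4 rose. The E box CACGTG, which MYC and its partners bind, was in 10 genes (5.13%, against 8.78%), of which 4 rose, and the YY1 motif GCCATNTTG in 10 (5.13%, against 3.56%), of which 2 rose. With 8 to 10 genes in each of these last 3 groups the counts are too small to set against the list.

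Chromosome 19 also holds 13 measured genes whose ZNF symbol has a letter after the number. Of these ZNF137P, a pseudogene, was above background on the 3 SB216763 arrays and on neither control array, and was at least 1.41-fold higher (adjusted p = 0.0046), taking the background level of each control array as its highest possible value. ZNF780B rose by 0.55 (SE 0.11), ZNF585A by 0.54 (SE 0.14) and ZNF585B by 0.45 (SE 0.088), and 0 of the 13 were called lower by limma. Their median was 0.13. With them included, 48 genes were called higher and 2 lower. A further 21 probes name a ZNF gene of chromosome 19 together with other genes and were not analysed here.

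Genes of the repression pathway that KRAB proteins use were called, in both directions, at a share near that of all genes as bright. Of 26 listed partners 24 had a probe of their own, and 3 rose, 2 fell and 19 missed the threshold. Of the 23 above background on all arrays 21.7% were called, beside 18.2% of all genes at that level. The median over the 24 partners was -0.023. TRIM28, the shared corepressor, was at 11.99 and 12.02 in the controls and at 12.04, 11.98 and 11.95 with SB216763, a difference of -0.017 with a 95% interval of -0.20 to 0.16. SETDB1, the methyltransferase that TRIM28 recruits, was at 9.31 and 9.36 against 9.81, 9.68 and 9.74, a rise of 0.41 (SE 0.080). ATF7IP, which stabilises SETDB1, rose by 0.61 (SE 0.10) and CHD3, a chromatin remodeller that binds TRIM28, by 0.48 (SE 0.076).

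UHRF1, which couples DNA methylation to replication, fell from 10.96 and 11.02 to 10.13, 10.11 and 10.08, 1.84-fold (adjusted p = 8.3e-04). SUV39H1, another histone H3 lysine methyltransferase, fell by 0.60 (SE 0.076). MORC3, a silencing ATPase, differed by 0.23 (SE 0.14, adjusted p = 0.37). Dropping either control array ended the 5 calls, and in both cases 3 partners were higher and 4 lower by the unadjusted p.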

How the data were processed

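Labelled RNA of 5 samples was measured on Affymetrix whole-transcript arrays. The deposited values are log2 expression values, 1 per probe and array, made with Affymetrix Expression Console per the submitters' processing notes. Their range, 1.95 to 14.84, is that of log2 values. The software version, the summarisation method and the build were not given in the sources used here. Array medians lay between 6.77 and 6.84, and values were used as deposited. The number of arrays limits the precision.

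Of 33297 probes, 19460 had 1 gene symbol in the platform annotation. They named 18417 genes, all of which entered limma 3.58.1 (R 4.3.3; lmFit and eBayes, two-sided, Benjamini-Hochberg adjustment, threshold 0.05). The prior had 4.62 degrees of freedom. The procedure was tested on simulated data. Summaries used pandas 2.3.3 and plots matplotlib 3.10.9.

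Named genes were the 15 largest increases and 15 largest decreases past the threshold above background on some array, the member with the smallest p of each cluster, 3 members with the smallest differences, 6 members chosen by name, the called and 3 fixed partners, and 3 ZNF genes elsewhere in each direction. Other genes were named after their values were seen. The members and lists were chosen with earlier results of these data known. Protein features and the alternative that leaves out near-identical proteins were not run, as no protein sequences were used here. Alternatives covered quantile normalization and centring, leaving out dim genes, averaged or single probes, other variance settings, array weights, a block on the replicate number, omission of each array, other cluster gaps, and wider or narrower member lists.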

Additional observations from a re-analysis of the deposited data

How the results depend on the processing

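The counts of ZNF genes on chromosome 19 called higher and lower were 44 and 2, those of ZNF genes elsewhere 28 and 3, and those of the KRAB partners 3 and 2. With each array left out in turn they ran from 0 to 60 and from 0 to 2, from 0 to 38 and from 0 to 4, and from 0 to 3 and from 0 to 3. The 0 counts came without control replicate 1 and without control replicate 2, where 1 and 0 of all genes were called, and for lower chromosome 19 genes also without SB216763 replicate 1. With a single control array left, its variation is taken to equal that among the SB216763 arrays. Without moderation, 4 and 0 chromosome 19 genes, 1 and 0 elsewhere and 1 partner higher were called. Array weights gave 74 chromosome 19 genes higher, 57 and 13 elsewhere and 4 partners lower. Of all 18417 genes 13.9% were then called higher, and 2152 lower. This setting rests mainly on SB216763 replicate 1, with a weight of 8.54, while the other arrays had weights of 0.31 to 0.76. Centring gave medians of 0.075 on chromosome 19 and 0.035 elsewhere, 18 genes elsewhere higher and 4 partners lower. Of all 18417 genes 5.69% were then called higher, and 1536 lower. Quantile normalization gave 5 genes elsewhere lower, where 1537 of all 18417 genes were, and a median elsewhere of 0.065. The filter on dim genes and the variance trend each gave 4 partners lower, where 1398 of 12856 and 1439 of 18417 genes were called lower. With the replicate number as a block, 31 chromosome 19 genes were called higher and 15 elsewhere, where 5.11% of all genes were. Deviations of equal-numbered arrays correlated at -0.052 and -0.10, so the numbers were not taken as pairs. Gaps of 2 or 10 genes in place of 5 turned no cluster median. Averaged probes, single probes and the added or narrowed member lists left the chromosome 19 counts within 1.5 times the values above. The members above background on all 5 arrays, and those outside the cluster ZNF101 to ZNF254, were chosen as alternatives after seeing the data. The cause of these shifts was not tested. ZNF genes not above background carry little information.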
